A study of Mus musculus with 4 samples.

Results

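The neurotrophins and their receptors were examined as 7 genes in bulk RNA of mouse cerebellum. The 7 genes were *Ntf3*, *Ntf5*, *Bdnf*, *Ntrk2*, *Ntrk3*, *Ngfr* and *Sort1*. They were taken from the deposited tables by their NCBI gene identifiers, by a rule that reads no expression value, although earlier results of these data were known when the genes were chosen, and all 7 of 7 were found among 24532 identifiers. RNA came from granule-cell-enriched (GCE) tissue, which was cut by hand from slices of the cerebellar vermis, while the labels name the tissue only as cerebellum. The 4 libraries came from 2 wild-type (WT) and 2 *Kdm3b*+/- animals, and each library held 1 mouse. All were adult males according to the methods, and the WT mice were littermates of *Kdm3b*+/- mice. The *Kdm3b*+/- mice carried a gene-trap vector in 1 copy of *Kdm3b*, which encodes a demethylase of histone H3 lysine 9, and came from 1 embryonic stem cell line. They were crossed first to C57Bl/6N and then to C57Bl/6J. Expression is given as TPM, the abundance of transcripts scaled to the same total in every library after a correction for transcript length.

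Neurotrophins are secreted growth factors of neurons. They are made as proneurotrophins, which are cleaved by furin and related convertases inside the cell or by proteases outside it. Mature neurotrophins bind Trk receptor tyrosine kinases, which signal through the Ras-MAP kinase, PI3 kinase-Akt and phospholipase C gamma pathways, and uncleaved proneurotrophins bind the p75 receptor together with sortilin. *Ntf3* encodes neurotrophin-3, whose main receptor is TrkC, the product of *Ntrk3*. *Bdnf* encodes brain-derived neurotrophic factor and *Ntf5* encodes neurotrophin-4, and both bind TrkB, the product of *Ntrk2*. *Ngfr* encodes p75 and *Sort1* encodes sortilin. In the cerebellum, BDNF is known for its part in the survival and migration of granule cells, and neurotrophin-3 made by granule cells for its part in the growth of Purkinje cell dendrites. TrkB and TrkC exist in full-length forms and in truncated forms without the kinase, and the truncated form of TrkB is abundant in astrocytes.

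In the deposited tables, *Ntf3* (NCBI gene 18205) lies on the reverse strand of chromosome 6 from 126101412 to 126166744. *Bdnf* (12064) lies on the forward strand of chromosome 2 from 109674700 to 109727043, and *Ntf5* (78405) on the forward strand of chromosome 7 from 45413695 to 45417179. *Ntrk2* (18212) lies on the forward strand of chromosome 13 from 58806569 to 59133970. *Ntrk3* (18213) lies on the reverse strand of chromosome 7 from 78192114 to 78577838. *Ngfr* (18053) lies on the reverse strand of chromosome 11 from 95568821 to 95587698, and *Sort1* (20661) on the forward strand of chromosome 3 from 108284064 to 108361519. For 6 of the 7 genes both ends lay within 100 bases of RefSeq on GRCm38, and for *Ntrk3* they did not. In the tables, 0 other gene models overlapped any of the 7 genes.

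The start regions of *Ntf3* and *Ntrk2* are shown because these were the tested members in which the libraries of the genotypes did not overlap. The sequences are from RefSeq on GRCm38.p6, run 5′ to 3′ on the gene's strand from 250 bases before a transcript start to 50 bases after it, and have in capitals each match to GGGCGG (the Sp1 box, on either strand, so also as its reverse complement) and to CACGTG (an E-box, a palindrome). The first *Ntf3* window is chr6:126164911-126165210 and the second is chr6:126166695-126166994, both on the reverse strand. The *Ntrk2* window is chr13:58806319-58806618 on the forward strand.
*Ntf3* window 1: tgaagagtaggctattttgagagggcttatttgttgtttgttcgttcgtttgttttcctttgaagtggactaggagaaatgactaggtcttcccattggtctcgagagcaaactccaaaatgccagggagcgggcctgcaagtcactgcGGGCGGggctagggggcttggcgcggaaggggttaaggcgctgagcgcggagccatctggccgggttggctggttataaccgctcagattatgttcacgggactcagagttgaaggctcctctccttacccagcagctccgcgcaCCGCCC
*Ntf3* window 2: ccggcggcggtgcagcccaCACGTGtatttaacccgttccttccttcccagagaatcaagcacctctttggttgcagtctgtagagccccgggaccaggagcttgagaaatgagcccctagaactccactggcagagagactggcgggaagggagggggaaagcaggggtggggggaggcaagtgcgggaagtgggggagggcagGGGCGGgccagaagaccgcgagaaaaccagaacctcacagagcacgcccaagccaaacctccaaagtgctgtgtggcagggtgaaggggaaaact
*Ntrk2* window: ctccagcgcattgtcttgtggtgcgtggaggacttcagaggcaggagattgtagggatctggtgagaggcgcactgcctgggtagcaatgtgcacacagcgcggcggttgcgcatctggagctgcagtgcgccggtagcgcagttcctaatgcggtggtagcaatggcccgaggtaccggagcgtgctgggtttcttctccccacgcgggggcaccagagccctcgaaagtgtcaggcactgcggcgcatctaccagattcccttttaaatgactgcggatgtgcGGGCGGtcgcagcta
The *Ntf3* windows held 17 and 12 CpG dinucleotides and the *Ntrk2* window held 23, while the median of all 32851 windows was 7. GGGCGG matched 2 times in the first *Ntf3* window, 1 time in the second and 1 time in the *Ntrk2* window, and 35.66% of all windows held it. CACGTG matched 1 time, in the second *Ntf3* window, and 7.15% of all windows held it. TGACGTCA, the cAMP response element, was in none of the 11 windows of the 4 members that had one, and in 1.79% of all windows. Its half-site TGACG matched 1 time in the third *Bdnf* window, which is not shown, and 20.81% of all windows held it. These are matches of letters, and binding or methylation was not measured here.

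The aligned depth, found by dividing coverage by FPKM, was 4.92 and 5.74 gigabases for WT and 5.69 and 6.69 for *Kdm3b*+/- libraries. Granule cell markers were present in every library, with a summed TPM of 5695 and 6836 in WT mice and 5850 and 6399 in *Kdm3b*+/- mice, and 14 of 14 passed the filter of a mean TPM of at least 1. Markers of other cells were also present. Purkinje cell markers summed to 1706 in WT mouse 1 and to between 772 and 950 in the other 3 mice, so WT mouse 1 stood apart. Results of the members are therefore also given without that library where it moved them. The targeted gene, *Kdm3b*, had a TPM of 9.10 and 11.0 in WT mice and 8.30 and 7.90 in *Kdm3b*+/- mice (log2 fold change −0.27, limma adjusted p = 0.424), and this value counts reads on all its exons.

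*Ntf3* was higher in *Kdm3b*+/- mice in each library. Its TPM was 18.4 and 23.8 in WT mice (21.1 ± 3.80, given as mean ± SD with n = 2) and 38.6 and 33.6 in *Kdm3b*+/- mice (36.1 ± 3.47, n = 2), so that both *Kdm3b*+/- mice lay above both WT mice. The ratio of the means was 1.71. In a limma fit of log2(TPM + 1) across all 13652 tested genes, the log2 fold change of *Ntf3* was 0.75 (SE 0.17, unadjusted 95% interval 0.37 to 1.14). Its unadjusted p was 0.00158 and its Benjamini-Hochberg adjusted p was 0.112, so *Ntf3* was not a differentially expressed (DEX) gene, a call that needed an adjusted p below 0.05 together with a fold change above 1.2 on the linear scale. The authors, with DESeq2 on counts, list *Ntf3* as a DEX gene and report it raised by RT-qPCR in separate mice. In the limma fit, *Ntf3* ranked 190 of the 13652 genes by p. Without WT mouse 1 its log2 fold change was 0.58 (limma adjusted p = 0.102).

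*Bdnf* did not separate the genotypes. Its TPM was 17.4 and 35.5 in WT mice (26.5 ± 12.8, n = 2) and 36.3 and 30.6 in *Kdm3b*+/- mice (33.4 ± 4.02, n = 2). WT mouse 2 lay between the *Kdm3b*+/- mice and WT mouse 1 was the lowest of the 4. The log2 fold change was 0.40 (SE 0.28, 95% interval −0.22 to 1.03, limma adjusted p = 0.475). WT mouse 1 decided this value, since without it the log2 fold change was −0.09, and without WT mouse 2 it was 0.90. WT mouse 1 was also the library with the highest sum of Purkinje cell markers, and the part of this in the *Bdnf* value was not tested. The gene value merges all *Bdnf* transcripts, of which RefSeq lists 12, so that the many alternative first exons of this gene cannot be told apart.

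*Ntf5* was near 0 in all 4 libraries. Its TPM was 0.0464 and 0.0624 in WT mice and 0 and 0 in *Kdm3b*+/- mice. The coverage of *Ntf5* came in whole steps, within a tolerance of 0.002, and these were 2 and 3 steps in WT mice and 0 in *Kdm3b*+/- mice. No fold is given, since none of these lay above a floor of 3 steps, and *Ntf5* was not tested. Its absence in the *Kdm3b*+/- libraries was not distinguishable from the WT level at this depth.

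*Ntrk2*, the TrkB gene, was lower in *Kdm3b*+/- mice in each library. Its TPM was 79.6 and 82.4 in WT mice (81.0 ± 1.97, n = 2) and 54.0 and 56.6 in *Kdm3b*+/- mice (55.3 ± 1.78, n = 2). Both *Kdm3b*+/- mice lay below both WT mice, and their mean differed by −31.8% from the WT mean. The log2 fold change was −0.54 (SE 0.13, 95% interval −0.84 to −0.24), with an unadjusted p of 0.00269 and a limma adjusted p of 0.135. *Ntrk2* thus ranked 270 by p and was not a DEX gene. The authors name *Ntrk2* among the most connected genes of a network of their synaptic signaling DEX genes and interactors of these. Without WT mouse 1 the log2 fold change was −0.57 (limma adjusted p = 0.0937). Full-length and truncated TrkB are merged in this value.

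Most astrocyte and Bergmann glia markers were lower in the same libraries as *Ntrk2*. Their summed TPM was 4494 and 3721 in WT mice and 3306 and 3208 in *Kdm3b*+/- mice, and *Aldoc*, a glycolytic enzyme that Purkinje cells also express, made up most of it. Without *Aldoc* the sums of the other 11 markers overlapped, at 1347 and 1254 in WT mice and 1172 and 1384 in *Kdm3b*+/- mice. Of the 12 markers, all tested, 9 had a lower and 3 a higher mean in *Kdm3b*+/- mice, and 7 lay below and 2 above the WT mice in both *Kdm3b*+/- libraries. Over all tested genes a lower mean was found for 60.4%, and both *Kdm3b*+/- libraries lay below the WT mice for 32.0% and above them for 19.2%. *Slc1a3*, the glial glutamate transporter GLAST, had a TPM of 169 and 124 in WT mice and 104 and 104 in *Kdm3b*+/- mice. *Aldh1l1*, an astrocyte enzyme of folate metabolism, had 49.7 and 50.3 in WT mice and 27.0 and 35.0 in *Kdm3b*+/- mice. *Aqp4*, the astrocyte water channel, went the other way, with 59.2 and 82.3 in WT mice and 150 and 152 in *Kdm3b*+/- mice, and was the 1 DEX gene of the list (log2 fold change 1.10, limma adjusted p = 0.0330). These 4 markers were named after their values were seen. Their part in the *Ntrk2* value was not tested, and in bulk tissue fewer cells of a type and less RNA per cell cannot be told apart.

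*Ntrk3*, the TrkC gene, was the highest of the 7 genes by TPM and did not separate the genotypes. Its TPM was 94.4 and 109.6 in WT mice (102 ± 10.8, n = 2) and 95.8 and 96.4 in *Kdm3b*+/- mice (96.1 ± 0.407, n = 2). Both *Kdm3b*+/- mice lay between the WT mice. The log2 fold change was −0.08 (SE 0.14, 95% interval −0.39 to 0.23, limma adjusted p = 0.790). It was 0.03 without WT mouse 2, so its sign rested on that library, and it was −0.19 without WT mouse 1. The interval leaves room for a change in either direction, so the level of *Ntrk3* is not shown to be equal.

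*Sort1*, which binds proneurotrophins with p75 and sorts BDNF inside the cell, had overlapping groups. Its TPM was 19.4 and 21.9 in WT mice (20.6 ± 1.76, n = 2) and 15.6 and 20.5 in *Kdm3b*+/- mice (18.0 ± 3.51, n = 2). *Kdm3b*+/- mouse 1 was the lowest and *Kdm3b*+/- mouse 2 lay between the WT mice. The log2 fold change was −0.19 (SE 0.17, 95% interval −0.59 to 0.20, limma adjusted p = 0.596). Without *Kdm3b*+/- mouse 1 it was −0.0039.

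*Ngfr*, the p75 gene, was near 0 in all 4 libraries. Its TPM was 0.0535 and 0 in WT mice and 0.0224 and 0.0194 in *Kdm3b*+/- mice, which were 2, 0, 1 and 1 steps of coverage. No fold is given for such values.

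**Figure D1:**
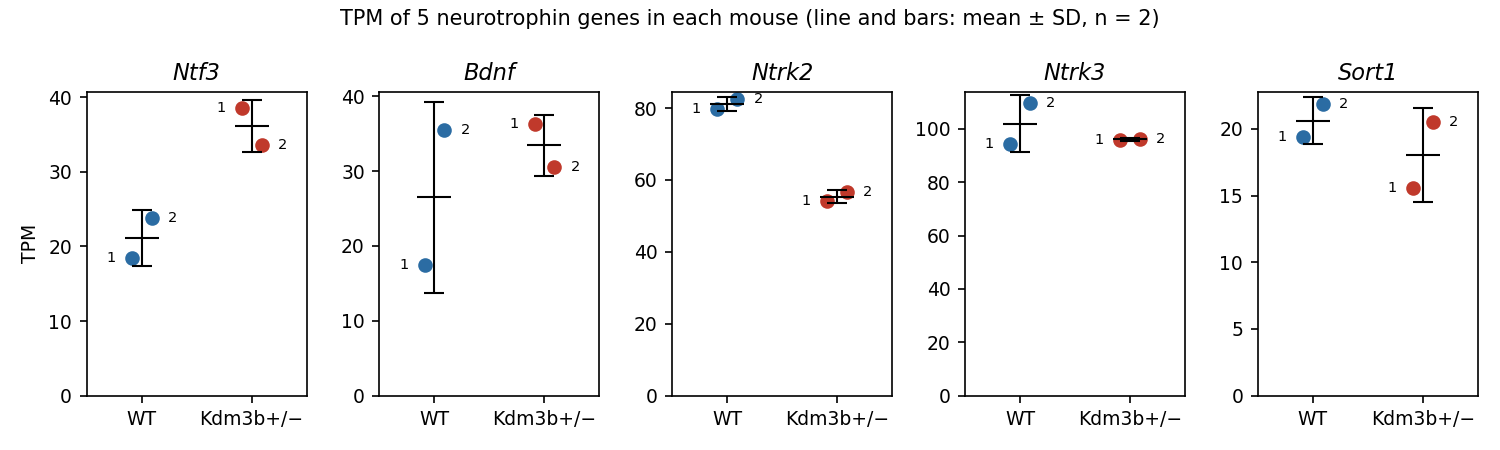
TPM of *Ntf3*, *Bdnf*, *Ntrk2*, *Ntrk3* and *Sort1* in each mouse, with WT mice in blue, *Kdm3b*+/- mice in red, the digits 1 and 2 naming the mouse, and lines and bars giving the mean ± SD (n = 2). The *Kdm3b*+/- mice lie above the WT mice for *Ntf3* (33.6 and 38.6 against 18.4 and 23.8) and below them for *Ntrk2* (54.0 and 56.6 against 79.6 and 82.4), and the groups overlap in the other 3 panels.

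Of the 7 genes, 5 passed the filter, and *Ntf5* and *Ngfr* did not. Of these 5, 0 were DEX genes by limma, beside 63 of all 13652 tested genes (0.461%), of which 16 were higher (0.117%) and 47 were lower (0.344%) in *Kdm3b*+/- mice. An unadjusted p below 0.05 was seen for 2 of the 5, *Ntf3* and *Ntrk2*, beside 17.0% of all tested genes. It was found with a higher level for 5.47% and with a lower level for 11.5% of all tested genes. Groups that did not overlap were also found for 2 of the 5, beside 51.3% of all tested genes, with both *Kdm3b*+/- mice above both WT mice in 19.2% and below them in 32.0%. Separation of the groups was therefore no more frequent among the members than among all genes. The median log2 fold change was −0.08 over the 5 members and −0.07 over all tested genes. With 2 mice against 2, an exact permutation test of 1 gene cannot give a two-sided p below 0.333, while limma borrows its estimate of spread from all genes.

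**Figure D2:**
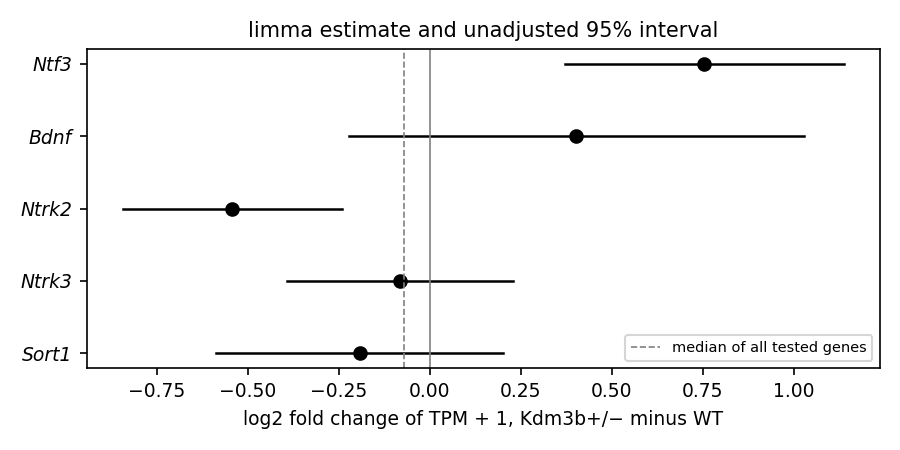
Log2 fold change of TPM + 1, *Kdm3b*+/- minus WT, for the 5 tested members, with points for the limma estimate and lines for the unadjusted 95% interval, and a dashed line at the median of all tested genes (−0.07). The intervals of *Ntf3* (0.37 to 1.14) and *Ntrk2* (−0.84 to −0.24) lie on opposite sides of 0, and those of *Bdnf*, *Ntrk3* and *Sort1* cross 0.

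The order of the levels was set by TPM, which is corrected for transcript length. In the WT mice the order was *Ntrk3*, *Ntrk2*, *Bdnf*, *Ntf3*, *Sort1*, *Ntf5* and *Ngfr*, and in *Kdm3b*+/- mice it was *Ntrk3*, *Ntrk2*, *Ntf3*, *Bdnf*, *Sort1*, *Ngfr* and *Ntf5*. Neighbours whose values overlapped were *Bdnf* and *Ntf3*, *Ntf3* and *Sort1*, and *Ntf5* and *Ngfr* in WT mice, and *Ntf3* and *Bdnf* in *Kdm3b*+/- mice. By mean TPM over the 4 libraries, *Ntrk3* lay at percentile 91.0 of all identifiers, *Ntrk2* at 87.2, *Bdnf* at 77.6, *Ntf3* at 77.0 and *Sort1* at 72.3.

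The deposited coverage gave another order. Divided by the aligned gigabases of a library, the coverage of *Ntrk2* was the highest in WT mice, and that of *Ntrk3* and *Bdnf* lay below that of *Ntf3* and *Sort1* in every library. The coverage of a gene was lower than its FPKM and the ratio of most genes would give by 17.5 to 17.8 times for *Ntrk3*, by 12.8 times for *Bdnf*, by 1.83 to 1.86 times for *Ntrk2* and by 1.13 to 1.15 times for *Ntf3*. The size of this gap was nearly the same in every library, so before a pseudocount is added it bears on the order of the genes more than on a comparison of genotypes. On the scale of log2(coverage per aligned gigabase + 1), where the pseudocount weighs more on genes of low coverage, the log2 fold change of *Bdnf* was 0.23 in place of 0.40, that of *Ntf3* was 0.76 and that of *Ntrk2* was −0.45. On that scale the ratio of *Ntf3* to *Bdnf* differed by 0.54 in place of 0.35, and that of *Bdnf* to *Ntrk2* by 0.67 in place of 0.95. Of 12291 entries with an FPKM over 1 in WT mouse 1, 708 (5.76%) had a gap of more than 2 times. How the coverage of a gene with several transcripts was averaged is not given in the sources used here, and the order of the members therefore holds for TPM.

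**Figure D3:**
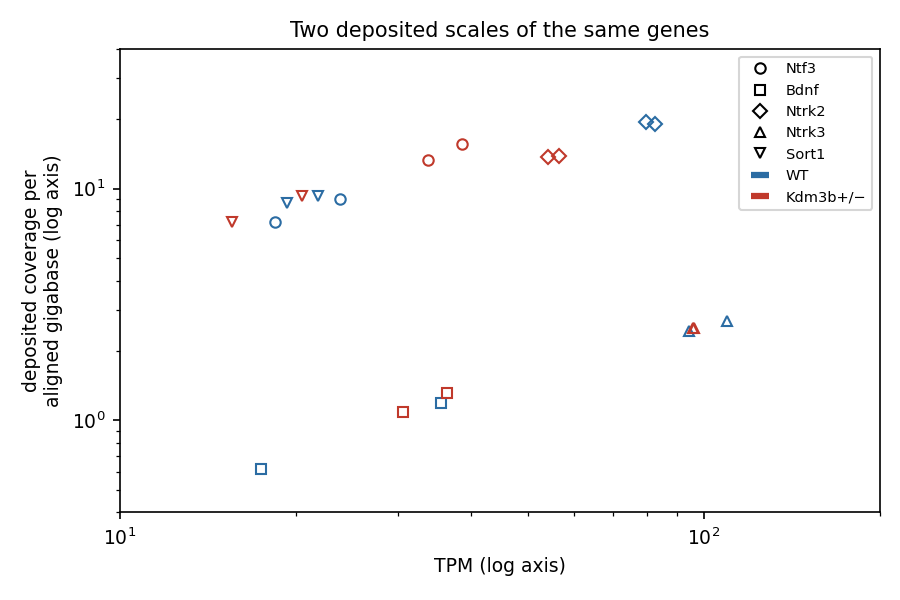
TPM (horizontal, log axis) and deposited coverage per aligned gigabase (vertical, log axis) of 5 members in each of the 4 libraries, with a marker shape for each gene, WT mice in blue and *Kdm3b*+/- mice in red. *Ntrk3* and *Bdnf* lie far below the other 3 genes for their TPM, by 17.5 to 17.8 and by 12.8 times under the ratio of most genes in every library.

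Ratios of members were taken within each library. All are ratios of TPM + 1, which depend slightly on the scaling of the library through the added 1. With FPKM in place of TPM the largest log2 difference below, of 1.30, was 1.25. Neurotrophin-3 to TrkB transcripts gave the largest difference of the 6 ratios. That ratio, of *Ntf3* to *Ntrk2*, was 0.241 and 0.297 in WT mice and 0.719 and 0.602 in *Kdm3b*+/- mice. Its log2 difference was 1.30. *Ntf3* over *Ntrk3*, the ligand over its main receptor, was 0.204 and 0.224 in WT mice and 0.409 and 0.356 in *Kdm3b*+/- mice, with a log2 difference of 0.84. The ratio of *Bdnf* to *Ntrk2*, again a ligand over its receptor, was 0.229 and 0.438 in WT mice and 0.677 and 0.549 in *Kdm3b*+/- mice, with a log2 difference of 0.95 that dropped to 0.48 without WT mouse 1.

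The receptor ratio, *Ntrk2* over *Ntrk3*, again of TPM + 1, was 0.846 and 0.754 in WT mice and 0.569 and 0.591 in *Kdm3b*+/- mice. Its log2 difference was −0.46. The ligand ratio, *Ntf3* over *Bdnf*, gave log2 values of 0.08 and −0.56 in WT mice and 0.09 and 0.13 in *Kdm3b*+/- mice. Its difference of 0.35 rested on single WT libraries, and was 0.03 without WT mouse 2 and 0.67 without WT mouse 1. In these 5 ratios the groups did not overlap, and each had an exact two-sided permutation p of 0.333, the smallest that 2 mice against 2 allow (0.4 after Benjamini-Hochberg adjustment over the 6 ratios). *Ngfr* over *Sort1* had overlapping groups, an exact two-sided permutation p of 0.667 and a difference of 0.19. With *Ngfr* at 2 steps of coverage or fewer, the added 1 makes up nearly all of its term, so this ratio follows *Sort1*. The ratios share genes and are not independent of each other or of the levels above. Each of the 5 holds *Ntf3* or *Ntrk2*, the members whose groups already lay apart, so their separation adds no support. The share of other gene pairs that separate was not taken.

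**Figure D4:**
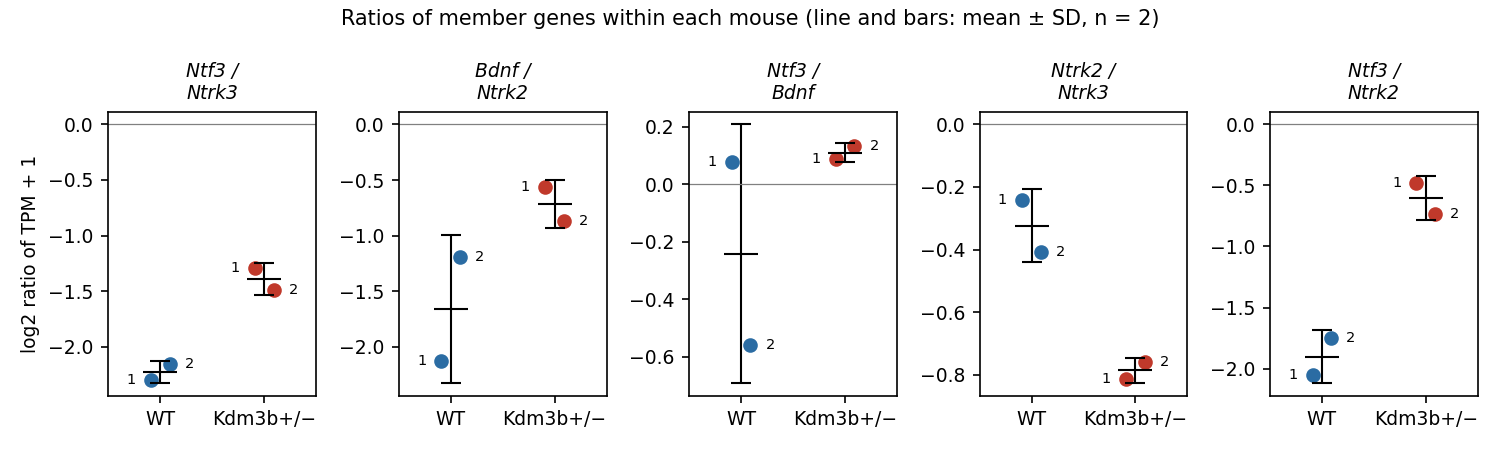
Log2 ratio of TPM + 1 of pairs of members within each mouse, with WT mice in blue, *Kdm3b*+/- mice in red, the digits 1 and 2 naming the mouse, and lines and bars giving the mean ± SD (n = 2). Each panel has its own vertical axis. The groups do not overlap in any of the 5 panels, and *Ntf3* over *Ntrk2* differs most (log2 difference 1.30). Each of the 5 panels holds *Ntf3* or *Ntrk2*, whose groups already lay apart. The ratio of *Ngfr* to *Sort1*, in which the groups overlap, is not drawn.

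The tested genes outside the members whose log2(TPM + 1), centred over the 4 libraries, lay nearest to *Ntf3* were *Ifitm1*, *Car4* and *H2ac23*, at Euclidean distances of 0.0655, 0.0913 and 0.101. *Car4*, a membrane-bound carbonic anhydrase, had a TPM of 495 and 589 in WT mice and 961 and 885 in *Kdm3b*+/- mice and was a DEX gene (log2 fold change 0.77, limma adjusted p = 0.0459). *Ifitm1*, an interferon-induced membrane protein, had 2.88 and 3.68 in WT mice and 6.51 and 5.71 in *Kdm3b*+/- mice. *H2ac23*, a histone H2A gene, had 1.15 and 1.90 in WT mice and 3.27 and 2.71 in *Kdm3b*+/- mice. Nearest to *Ntrk2* were *Ivd*, *Zfp773* and *C1ql2*, at distances of 0.0189, 0.0388 and 0.0418. *Ivd*, a mitochondrial enzyme of leucine breakdown, had a TPM of 145 and 151 in WT mice and 100 and 103 in *Kdm3b*+/- mice. *Zfp773* had 6.13 and 6.19 in WT mice and 3.80 and 3.91 in *Kdm3b*+/- mice. *C1ql2*, a secreted synaptic protein of the C1q family, had 1.76 and 1.90 in WT mice and 0.951 and 1.04 in *Kdm3b*+/- mice. Likeness over 4 libraries is a description of these libraries.

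The wider pathway was examined as 105 genes in lists of processing and release, p75 and sortilin partners, Trk adaptors, kinase cascades and activity-induced genes. Of these, 90 were tested and 0 were DEX by limma, beside 0.461% of all tested genes. The authors, with DESeq2 on counts, name *Akt2*, *Egr1* and *Plcg1* among their DEX genes. A lower mean in *Kdm3b*+/- mice was found for 67 of the 90 (74.4%, beside 60.4% of all tested genes) and a higher mean for 23, and the median log2 fold change was −0.17, beside −0.07 for all tested genes. With 5 other scalings of the libraries, between 55 and 68 of the 90 were lower and the median lay between −0.17 and −0.09. An unadjusted p below 0.05 was seen for 24 genes that were lower (26.7%, beside 11.5% of all tested genes) and for 4 that were higher (4.44%, beside 5.47%). Groups did not overlap for 47 of the 90 (52.2%, beside 51.3% of all tested genes), with 36 below (40%, beside 32.0%) and 11 above the WT mice (12.2%, beside 19.2%). The lists were chosen with earlier results of these data known. The shares here and for each list below are therefore descriptions and no test of enrichment.

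In the list of proneurotrophin processing and release, 12 of 16 genes were tested, and the median log2 fold change was −0.44. A lower mean was found for 10 (83.3%, beside 60.4% of all tested genes). An unadjusted p below 0.05 was seen for 7 of the 12, all lower (58.3%, beside 11.5%). Of the 12, 0 were DEX genes, beside 0.461% of all tested genes. *Pcsk1*, a convertase of the regulated secretory pathway, had a TPM of 4.02 and 5.13 in WT mice and 2.38 and 2.19 in *Kdm3b*+/- mice (log2 fold change −0.76, limma adjusted p = 0.140). *Furin*, the convertase of the Golgi, had 9.24 and 12.2 in WT mice and 5.31 and 7.54 in *Kdm3b*+/- mice (−0.66, limma adjusted p = 0.188). *Pcsk6*, another convertase, had 15.7 and 15.8 in WT mice and 10.2 and 11.6 in *Kdm3b*+/- mice (−0.50, limma adjusted p = 0.189). The other 4, named after their values were seen, were *Pcsk7*, the protease genes *Plat* and *Mmp9*, and *Hap1*, the huntingtin-associated protein that takes part in BDNF transport, with log2 fold changes between −0.63 and −0.38. *Cadps2*, a factor of neurotrophin release in granule cells that was also singled out after its values were seen, had overlapping groups, at 98.0 and 129 in WT mice and 97.6 and 114 in *Kdm3b*+/- mice.

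Among p75 and sortilin partners, 15 of 17 genes were tested, and the median log2 fold change was −0.20. A lower mean was found for 10 (66.7%, beside 60.4% of all tested genes). An unadjusted p below 0.05 was seen for 3 that were higher (20%, beside 5.47%) and 1 that was lower (6.67%, beside 11.5%). *Bex1*, a p75-binding adaptor, had a TPM of 188 and 243 in WT mice and 278 and 272 in *Kdm3b*+/- mice (log2 fold change 0.37, limma adjusted p = 0.263). Its relative *Bex3*, listed as *Ngfrap1* and also known to bind p75, had 564 and 500 in WT mice and 678 and 621 in *Kdm3b*+/- mice (0.29, limma adjusted p = 0.281). *Nradd*, a p75 homolog without a ligand-binding part, had 2.48 and 0.944 in WT mice and 3.40 and 2.87 in *Kdm3b*+/- mice (0.67, limma adjusted p = 0.263). *Lingo1*, a partner of p75 in the Nogo receptor complex, had 22.2 and 26.8 in WT mice and 15.1 and 19.97 in *Kdm3b*+/- mice (−0.47, limma adjusted p = 0.248). These partners were measured in libraries in which *Ngfr* itself was near 0.

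Of the Trk adaptors and regulators, 26 of 28 genes were tested, and the median log2 fold change was −0.17. A lower mean was found for 21 (80.8%, beside 60.4% of all tested genes), and with 5 other scalings for between 17 and 22. An unadjusted p below 0.05 was seen for 4 that were lower (15.4%, beside 11.5%) and 1 that was higher (3.85%, beside 5.47%). The higher one was *Dok5*, a docking protein of Trk receptors, with a TPM of 29.1 and 26.5 in WT mice and 38.6 and 41.7 in *Kdm3b*+/- mice (log2 fold change 0.52, limma adjusted p = 0.168). *Plcg1*, the phospholipase C gamma that Trk receptors activate, had 7.82 and 11.3 in WT mice and 3.54 and 6.42 in *Kdm3b*+/- mice (−0.84, limma adjusted p = 0.183). *Sh2b2*, an adaptor of receptor kinases, had 3.52 and 3.09 in WT mice and 1.99 and 0.961 in *Kdm3b*+/- mice (−0.83, limma adjusted p = 0.168). *Slitrk5*, a co-receptor of TrkB, had 7.20 and 7.75 in WT mice and 5.65 and 5.04 in *Kdm3b*+/- mice (−0.42, limma adjusted p = 0.259).

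Of the kinases and other members of the Trk cascades, 26 of 27 were tested, and 16 had a lower and 10 a higher mean. The lower share was 61.5%, beside 60.4% of all tested genes. The median log2 fold change was −0.05, and its sign flipped with FPKM (0.02) and with median-ratio scaling (0.02). An unadjusted p below 0.05 was seen for 8 genes, all lower (30.8%, beside 11.5% of all tested genes). *Akt2* had a TPM of 62.8 and 72.1 in WT mice and 44.9 and 45.5 in *Kdm3b*+/- mice (log2 fold change −0.56, limma adjusted p = 0.142). *Akt1* had 177 and 196 in WT mice and 125 and 155 in *Kdm3b*+/- mice (−0.42, limma adjusted p = 0.225). Both encode Akt kinases, which act after PI3 kinase. *Rps6ka5*, a kinase that acts on CREB after the MAP kinases, had 14.8 and 15.0 in WT mice and 10.6 and 11.5 in *Kdm3b*+/- mice (−0.40, limma adjusted p = 0.246).

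Activity-induced genes are switched on within minutes by firing and by TrkB signalling. Of these, 11 of 15 were tested, and the median log2 fold change was −0.22. A lower mean was found for 10 (90.9%, beside 60.4% of all tested genes). An unadjusted p below 0.05 was seen for 4, all lower (36.4%, beside 11.5%). *Egr1*, an immediate early transcription factor, had a TPM of 78.8 and 124 in WT mice and 45.0 and 57.1 in *Kdm3b*+/- mice (log2 fold change −0.95, limma adjusted p = 0.114). *Dusp1*, a phosphatase of MAP kinases, had 113 and 167 in WT mice and 96.3 and 68.5 in *Kdm3b*+/- mice (−0.75, limma adjusted p = 0.172). *Junb*, a subunit of AP-1, had 22.5 and 33.0 in WT mice and 18.0 and 16.8 in *Kdm3b*+/- mice (−0.62, limma adjusted p = 0.187). In each of these 3 genes WT mouse 2 was the highest of the 4 libraries.

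**Figure D5:**
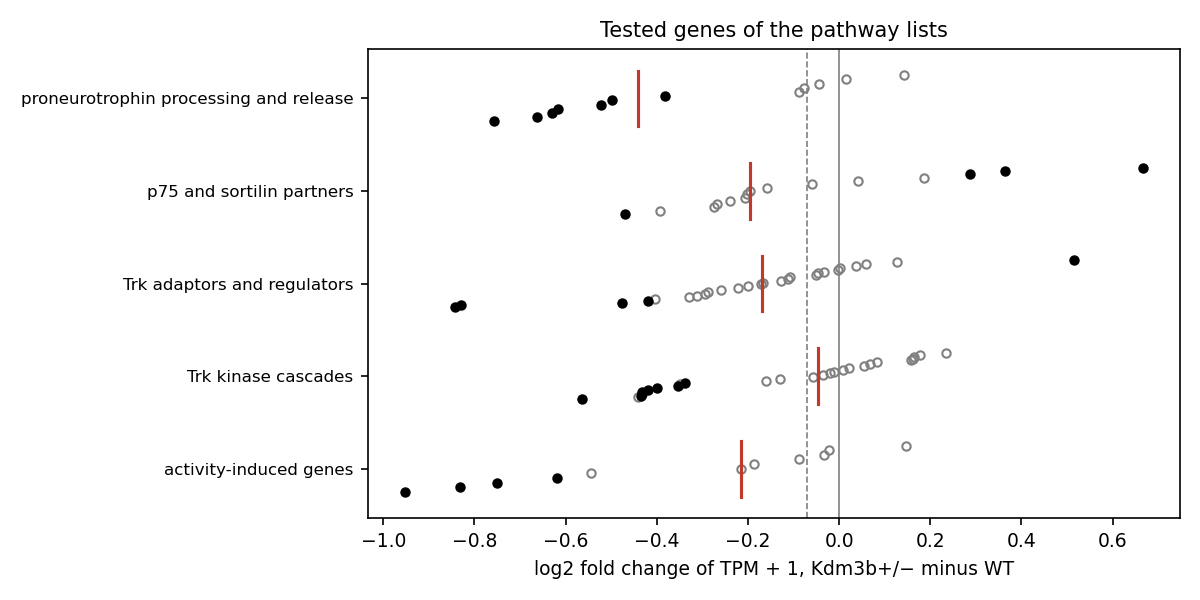
Log2 fold change of TPM + 1, *Kdm3b*+/- minus WT, of the 90 tested pathway genes by list, with 1 point per gene, filled where the unadjusted limma p was under 0.05, a red line at the median of the list and a dashed line at the median of all tested genes. The filled points of processing and release (7), kinase cascades (8) and activity-induced genes (4) all lie below 0, and the p75 and sortilin partners have 3 above 0 and 1 below. Over all tested genes, 11.5% had such a p with a lower level and 5.47% with a higher level.

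Markers of other cells were set beside the members in the same libraries. Of the Purkinje cell markers, 13 of 14 were tested, and 12 had a lower mean in *Kdm3b*+/- mice, 6 lay below both WT mice (beside 32.0% of all tested genes) and the median log2 fold change was −0.48. This rested on WT mouse 1, since without it 7 of the 13 had a lower and 6 a higher mean, and the median was −0.103, beside −0.0979 for all tested genes. *Homer3*, a postsynaptic scaffold of Purkinje cells named after its values were seen, had a TPM of 35.1 and 19.1 in WT mice and 12.8 and 10.8 in *Kdm3b*+/- mice. The authors list *Homer3* as a DEX gene, and in their RT-qPCR it went the same way without reaching significance. Oligodendrocyte markers summed to 17984 and 16448 in WT mice and 15192 and 18156 in *Kdm3b*+/- mice, and *Mbp* made up most of these sums. Of the 10 markers, 5 had a lower and 5 a higher mean. *Mobp*, named after its values were seen, was the 1 DEX gene, at 925 and 893 in WT mice and 471 and 482 in *Kdm3b*+/- mice (limma adjusted p = 0.0133). *Opalin*, named likewise, went the other way, at 82.9 and 88.3 in WT mice and 119 and 163 in *Kdm3b*+/- mice. Oligodendrocyte precursor markers summed to 45.0 and 53.3 in WT mice and 32.3 and 46.1 in *Kdm3b*+/- mice. Markers of inhibitory interneurons and Golgi cells summed to 231 and 177 in WT mice and to 162 in each of the *Kdm3b*+/- mice. *Gad1*, named after its values were seen, held 140 and 104 of this in WT mice and 81.6 and 78.5 in *Kdm3b*+/- mice. *Sst*, also named after its values were seen, went the other way, with 13.7 and 9.28 in WT mice and 24.4 and 17.3 in *Kdm3b*+/- mice. Of the 9 tested markers in this list, 6 had a lower and 3 a higher mean, beside 60.4% lower over all tested genes. Microglia markers summed to 278 and 282 in WT mice and 290 and 308 in *Kdm3b*+/- mice, and endothelial markers to 314 and 274 in WT mice and 292 and 293 in *Kdm3b*+/- mice. Mural and meningeal markers summed to 92.9 and 86.6 in WT mice and 80.0 and 82.6 in *Kdm3b*+/- mice. Choroid plexus markers were low, with sums between 1.06 and 3.87. Markers of deep nuclei and brainstem neurons summed to 255 and 107 in WT mice and 158 and 200 in *Kdm3b*+/- mice, and *Chat*, the defining marker of cholinergic neurons, was at 0 in all 4 libraries. The part of these cells in the values of *Ntf3*, *Bdnf*, *Ntrk2*, *Ntrk3* and *Sort1* was not tested.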

How the data were processed

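Bulk RNA-seq of cerebellar GCE tissue was examined in 2 WT and 2 *Kdm3b*+/- mice, grouped by the genotype in the labels. Same-numbered mice were different animals. Nothing more is stated on how the mice were sampled, so p-values set a difference against the spread between these samples. In limma that spread is estimated in part from the other tested genes.

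The authors trimmed low-quality bases, aligned reads with STAR and estimated abundance with StringTie. The build, annotation and tool versions are not given in the sources used here. The signal column, as deposited by the authors, is the read coverage of a gene and is not normalized. The deposited FPKM was scaled by the authors to transcript length and mapped fragments. The deposited TPM was scaled by the authors to transcript length and a fixed total. The authors' count model (DESeq2) was not repeated, since TPM values are not counts. Their methods state the limit for DEX genes as a log2 fold change of 1.2, while a linear fold change of 1.2 was used here. The authors also name DEX genes whose log2 fold changes lie below that stated limit. With the log2 limit 33 of the 63 DEX genes and 0 members would remain here.

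TPM was summed over entries with the same identifier, and symbols were found for 24462 of 24532 identifiers in a RefSeq table of GRCm38. Values were transformed to log2(TPM + 1), which understates the change of low genes, and the 13652 genes whose mean TPM reached 1 were tested with limma 3.58.1 (lmFit, eBayes with trend) in R 4.3.3, with genotype as the only term and Benjamini-Hochberg adjustment over all of them. Ratios within libraries were tested with an exact two-sided permutation test in SciPy 1.17.1. Steps of coverage are multiples of the lowest common value of a gene, and intervals and floors cover counting error or model error only. The scripts were tested on simulated data.

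The members and lists were chosen with earlier results of these data known. Genes named are the 7 members, *Kdm3b*, per list and direction the 3 genes of lowest p among those with an unadjusted p under 0.05 and groups that did not overlap, and the 3 genes nearest in pattern to *Ntf3* and to *Ntrk2*, and genes overlapping a member. The results of 2 further genes, which were counted among the 105 and not tested, are not reported here. The alternatives were another pseudocount (0.1), FPKM, no filter, a minimum mean TPM of 5, median-ratio scaling, quantile normalization, the 20 most abundant genes removed, robust eBayes (statmod 1.5.0) and eBayes with no trend, only the largest entry of a gene, a block by replicate number, a loess correction for length and GC (alone or together with the block), and leaving out 1 library at a time. Coverage per aligned gigabase was added after seeing the data. Sequences came from RefSeq windows, which 4 of the 7 members had. Tables and plots were made with Python 3.11.15, NumPy 2.4.6, pandas 2.3.3 and Matplotlib 3.10.9.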

Additional observations from a re-analysis of the deposited data

How the results depend on the processing

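Same-numbered mice are different animals, their deviations from the group means correlated at 0.1207 across genes, and at 0.02288 after correction for transcript length and GC content, and the labels name no litter, batch or day that they share. With 2 pairs this does not settle whether they shared a preparation, and the mice were treated as unpaired. With the replicate number as a block, 600 of 13652 genes (4.39%) were DEX in place of 63, among them 2 members, *Ntf3* (0.75, limma adjusted p = 0.0271) and *Ntrk2* (−0.54, limma adjusted p = 0.0382), and 7 pathway genes (*Akt2*, *Egr1*, *Furin*, *Hap1*, *Pcsk1*, *Plcg1* and *Sh2b2*). With the block and the correction for length and GC content together, 0 members were DEX (adjusted p = 0.161 for *Ntf3* and 0.102 for *Ntrk2*, limma), and the cause was not tested. Over the 14 alternatives with all 4 libraries, the log2 fold change lay between 0.60 and 0.87 for *Ntf3* (adjusted p 0.0271 to 0.485), −0.56 and −0.45 for *Ntrk2* (0.0382 to 0.293), 0.23 and 0.52 for *Bdnf*, −0.20 and −0.01 for *Ntrk3*, and −0.20 and −0.08 for *Sort1*. Except under the block, 0 members were DEX in any of the 18 other alternatives.

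With each library left out in turn, where the lone mouse of a group is assumed to vary like the other group, the range was 0.58 to 0.93 for *Ntf3*, −0.58 to −0.51 for *Ntrk2*, from −0.0908 (without WT mouse 1) to 0.90 for *Bdnf*, −0.19 to 0.0256 (without WT mouse 2) for *Ntrk3* and −0.38 to −0.0039 for *Sort1*. The ratio of *Ngfr* to *Sort1* differed by −0.0059 (without *Kdm3b*+/- mouse 1) to 0.38. DEX pathway genes numbered 0 to 3, with 2 without *Kdm3b*+/- mouse 1 (*Dusp1* and *Sh2b2*) and 3 without *Kdm3b*+/- mouse 2 (*Egr1*, *Hap1* and *Plcg1*).

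Over all genes, 2 were DEX without the filter, 38 with FPKM, 37 without trend, 14 with coverage (added after seeing the data), and 21, 28, 121 and 188 without WT mice 1 and 2 and *Kdm3b*+/- mice 1 and 2. The split into higher and lower DEX genes was 16 and 47 in the main test and 29 and 40 with median-ratio scaling, which moved the median log2 fold change of all genes from −0.07 to −0.0062. Depth limits *Ntf5* and *Ngfr*, at 3 steps of coverage or fewer.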
